A study of Mus musculus with 12 samples.

Results

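The LPS response of mouse macrophages was compared between genotypes with and without the NF-kB subunits p50 and p105, as the difference between a pair of differences. For each gene the change from unstimulated to LPS-treated IL10-/- cells was subtracted from the same change in p50-/-IL10-/- cells, so a positive value means a higher response without p50. The comparison uses 8 of the 12 arrays of the study, 2 in each of 4 groups, and covers all 12393 genes with a probe set that carries 1 symbol. No gene was preselected, and genes were then sorted by the direction of their response in each genotype. All cells were macrophages grown from bone marrow of the strain labelled 129-SvEv-Tac, for 5 days with 30% L-cell conditioned medium and 10% serum. In IL10-/- cells the gene of the cytokine interleukin 10 (IL-10) is knocked out, and p50-/-IL10-/- cells lack in addition Nfkb1, whose product p105 is processed to p50. Both genotypes therefore lack IL-10, and no cells with intact Il10 are among the samples. Cells of each genotype were left unstimulated or given 1 ng/ml lipopolysaccharide (LPS), and RNA was taken at 4 h. The remaining 4 arrays hold cells of both genotypes given IL-10 at 0.3 ng/ml beside the same dose of LPS. The labels call the 2 arrays of a group biological replicates without naming animals or cultures, so a p-value here rests on the spread of the arrays, which may be technical. Loss of p50 and loss of p105 cannot be told apart, and "without p50" below stands for both.

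LPS, a component of the outer wall of Gram-negative bacteria, is sensed by Toll-like receptor 4 and activates NF-kB, MAP kinases and interferon regulatory factors. p50 has a DNA-binding domain and no transactivation domain, so p50 dimers can occupy kB sites without activating, whereas p50 paired with RelA or c-Rel activates. p105 acts as an IkB protein that holds NF-kB dimers in the cytoplasm, and it also binds and stabilises the kinase TPL-2 (Map3k8), which carries the LPS signal to ERK. IL-10 is the main feedback cytokine of LPS-treated macrophages and is missing here in both genotypes.

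Levels are log2 expression values made by RMA, which aligns the distributions of all arrays, so a change in the total RNA of a group cannot be seen. The 2 arrays of each group correlated at 0.992 to 0.997 over all genes. In bulk RNA, fewer cells of a type and less RNA per cell cannot be told apart. A list of 13 measured macrophage markers averaged 11.1 to 11.3 log2 on every array. Of these, 0 were called for the difference of the LPS response, against 1.19% of all genes, so a list this short would hold few calls or none. The largest difference among them was in Mertk, a receptor for the uptake of dying cells, which read 10.32 and 10.49 unstimulated and 8.87 and 8.46 with LPS in IL10-/- cells, and 10.43 and 10.44 unstimulated and 10.17 and 9.74 with LPS in p50-/-IL10-/- cells. The genotypes overlapped unstimulated, and with LPS it was called 1.29 log2 higher without p50, but the difference of the response was not called (1.26 ± 0.27, limma adjusted p 0.0641). Transcripts of Nfkb1 were not analysed here, and where the Il10 probes lie with respect to the deleted part is unknown here, so the genotypes rest on the labels. A group mean under 5.6 log2, the highest lower quartile of the arrays, is called dim below, since sizes of change are uncertain there.

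Of the 12393 genes, 147 (1.19%) were called for a genotype difference of the LPS response, at an adjusted p under 0.05 in limma over all genes. The response was higher without p50 for 91 genes (0.734%), with differences from 0.49 to 3.37 log2, and lower for 56 (0.452%), with differences from -3.28 to -0.54. Over all genes the median difference was -0.01 log2 and the median size 0.11. Standard errors (SE) of the difference had a median of 0.141 log2.

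Sorted by direction, 78 of the 147 genes rose more without p50, of which 39 were called higher in both genotypes and 39 were called higher in p50-/-IL10-/- cells but not called in IL10-/- cells. A further 34 fell more deeply without p50, with 18 called lower in both genotypes and 16 called lower in p50-/-IL10-/- cells but not called in IL10-/- cells. For 12 genes the rise seen in IL10-/- cells was smaller (2 genes) or not called (10 genes) without p50. Another 9 genes fell in IL10-/- cells and fell less (5 genes) or were not called (4 genes) without p50. In 14 genes the responses were called in opposite directions, 10 raised in IL10-/- and lowered in p50-/-IL10-/- cells and 4 the reverse. The sorting uses the same arrays as the difference and describes it. Of all genes, LPS raised 7.76% in IL10-/- cells and 10.3% in p50-/-IL10-/- cells, and lowered 17.1% and 22.1%.

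**Figure D1:**
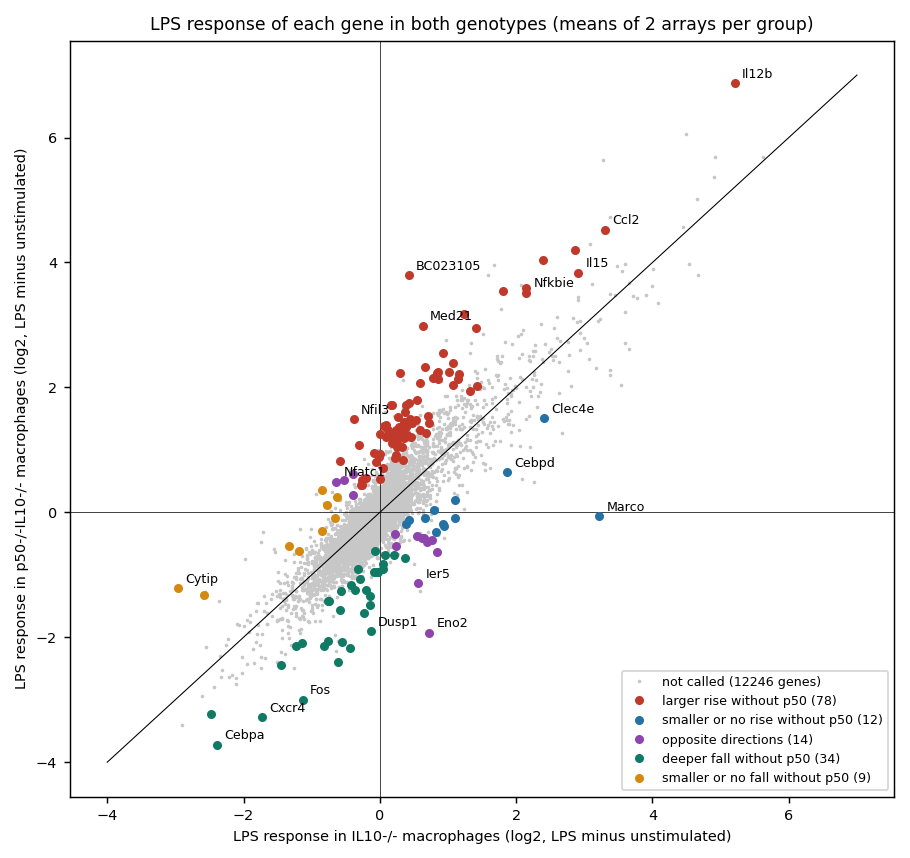
Change with LPS of each of 12393 genes (log2, LPS minus unstimulated, means of 2 arrays per group) in IL10-/- cells on the x axis and in p50-/-IL10-/- cells on the y axis, with the line of equal response. Grey points are the 12246 genes not called, and coloured points are the 147 called genes in 5 direction groups. The 78 larger rises lie above the line and the 34 deeper falls below it.

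For strongly regulated genes the called differences mostly followed the direction of the response. Among 114 genes raised more than 4-fold on average over the genotypes, 11 were called higher and 0 lower, with a median difference of 0.17 log2 (quartiles -0.20 and 0.72). Among 271 genes raised 2- to 4-fold on average, 22 were called higher and 3 lower (median 0.22). Among 262 genes lowered 2- to 4-fold, 1 was called higher and 12 lower (median -0.20), and among 26 lowered more than 4-fold, 1 was higher and 4 lower (median -0.45). The 11720 genes that moved within 2-fold on average held 93 of the calls, 0.794% of them. The averaged response and its difference are uncorrelated by construction when all groups have the same spread. The 95% interval of the difference lay within -1 and 1 log2 for 96.5% of the genes that moved within 2-fold but for 33.3% of those raised above 4-fold, so equal responses of the most inducible genes were mostly not resolved.

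The number of calls depended on single arrays. When single arrays were omitted, 1 at a time over the 8, between 32 and 255 genes were called, 32 without unstimulated p50-/-IL10-/- array 1, 43 without unstimulated p50-/-IL10-/- array 2, 39 without LPS-treated p50-/-IL10-/- array 1, 56 without unstimulated IL10-/- array 2, 98 without its array 1, 95 and 255 without LPS-treated IL10-/- arrays 2 and 1, and 128 without LPS-treated p50-/-IL10-/- array 2. The excess of higher over lower calls ended in 4 of these fits (16 and 16 without unstimulated p50-/-IL10-/- array 1, 20 and 23 without its array 2, 120 and 135 without LPS-treated IL10-/- array 1, and 19 and 20 without LPS-treated p50-/-IL10-/- array 1). All 147 differences kept their sign in all 8 fits, and 13 of the 91 higher and 12 of the 56 lower calls were kept in every one. A fit of only the 8 arrays compared called 78 genes, 46 higher and 32 lower, and ended 21 of the 54 calls named here, those of Il12b, Il15, Ifnb1, Il10, Ccl2 and Fos among them. When p-values were adjusted over all probe sets in place of genes, the probe sets used for Ccl2 (adjusted p 0.0533), Slc16a3 (0.057), Arid5a (0.0602), Ctla2b (0.0602), Klf4 (0.0613), Nr4a1 (0.0625) and Pag1 (0.0625) were not called. With 2 arrays against 2, an exact permutation test cannot give a two-sided p below 0.333, so each test of a single gene borrows its spread from all genes.

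Cytokine genes were among the 39 genes that LPS raised in both genotypes and more strongly without p50. In the list of inflammatory cytokines, 5 of 23 measured members were called higher and 0 lower (0.734% and 0.452% of all genes), with a median difference of 0.54 log2. The 5 include Il10, which is knocked out in both genotypes, so what its signal stands for is not known. Il12b (gene ID 16160), which codes for the p40 subunit shared by interleukins 12 and 23, read 4.86 and 4.66 unstimulated and 10.07 and 9.87 with LPS in IL10-/- cells, and 4.81 and 5.59 unstimulated and 12.25 and 11.88 with LPS in p50-/-IL10-/- cells. All LPS-treated p50-/-IL10-/- arrays lay above all LPS-treated IL10-/- arrays, and the unstimulated levels are dim. Its response was 5.21 log2 in IL10-/- and 6.87 in p50-/-IL10-/- cells, a difference of 1.66 ± 0.30 (SE, n = 2 arrays per group, limma adjusted p 0.0323).

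Il1a (gene ID 16175), the alarm cytokine interleukin 1 alpha, read 6.08 and 6.10 unstimulated and 8.54 and 7.94 with LPS in IL10-/- cells, and 6.48 and 6.31 unstimulated and 9.93 and 10.04 with LPS in p50-/-IL10-/- cells. The difference was 1.45 ± 0.27 log2 (limma adjusted p 0.033). Ifnb1 (gene ID 15977), a type I interferon, read 6.04 and 6.00 unstimulated and 6.87 and 6.34 with LPS in IL10-/- cells, and 5.77 and 5.92 unstimulated and 8.14 and 7.68 with LPS in p50-/-IL10-/- cells. Its levels stayed within 6.87 log2 in IL10-/- cells and reached 7.68 or more on both LPS-treated p50-/-IL10-/- arrays, a difference of 1.48 ± 0.26 (limma adjusted p 0.026). Il15 (gene ID 16168), which sustains NK and memory T cells, overlapped in the unstimulated genotypes (8.10 and 8.18 against 8.30 and 8.0) and ended at 11.19 and 10.90 in IL10-/- and 12.00 and 11.97 in p50-/-IL10-/- cells. Its difference of 0.93 ± 0.17 was the smallest of the 5 cytokines. The signal for Il10 (gene ID 16153) read 6.57 and 6.98 unstimulated and 7.71 and 7.55 with LPS in IL10-/- cells, and 6.94 and 6.54 unstimulated and 9.11 and 8.86 with LPS in p50-/-IL10-/- cells, a difference of 1.39 ± 0.22. What this probe set reads in cells with the knockout is not known.

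Of 26 chemokine genes only Ccl2 (gene ID 20296), the main attractant of monocytes, was called, and it was higher (0.734% of all genes). It read 7.03 and 7.41 unstimulated and 10.67 and 10.39 with LPS in IL10-/- cells, and 6.31 and 6.71 unstimulated and 11.19 and 10.87 with LPS in p50-/-IL10-/- cells. The p50-/-IL10-/- arrays lay below the IL10-/- arrays unstimulated (-0.71 log2) and above them with LPS (0.51), but neither genotype difference was called (limma adjusted p 0.055 and 0.0783). The difference of the response was 1.22 ± 0.24 log2 (limma adjusted p 0.04). The median difference of the chemokine list was -0.04 log2.

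Nfkbie (gene ID 18037) codes for the inhibitor IkB epsilon that retains RelA and c-Rel dimers. Nfkbie was the 1 called gene among 12 measured NF-kB subunits and IkB proteins (1.19% of all genes). It read 7.96 and 7.85 unstimulated and 10.11 and 9.99 with LPS in IL10-/- cells, and 6.97 and 6.65 unstimulated and 10.36 and 10.29 with LPS in p50-/-IL10-/- cells. The genotypes differed mainly in unstimulated cells, where p50-/-IL10-/- arrays were lower by 1.09 log2, and came close to each other with LPS. The difference of the response was 1.37 ± 0.18 log2 (limma adjusted p 0.00888). Arid5a (gene ID 214855), an RNA-binding protein that stabilises Il6 mRNA, read 7.18 and 7.46 unstimulated and 9.17 and 8.28 with LPS in IL10-/- cells, and 7.41 and 7.55 unstimulated and 10.41 and 10.45 with LPS in p50-/-IL10-/- cells. Its LPS-treated IL10-/- arrays lay apart from each other, both below the LPS-treated p50-/-IL10-/- arrays, and its difference was 1.54 ± 0.31 (limma adjusted p 0.0461).

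Promoter stretches of 3 of these genes show motifs in the bases before the annotated start, with RefSeq sequences of the mouse build GRCm38.p6 (a C57BL/6J genome, not the strain studied). Capitals in the first 2 sequences mark a match to the kappaB motif, the site that NF-kB dimers bind, and in the third a match to TGACGT, the cAMP response element (CRE) half-site, whose full form here is the palindrome TGACGTCA. The Nfkbie stretch is chr17:45555560-45555639 on the plus strand, the Ifnb1 stretch chr4:88522865-88522944 on the minus strand and the Med21 stretch chr6:146642409-146642488 on the plus strand, each printed 5′ to 3′ on the strand of the gene.
Nfkbie: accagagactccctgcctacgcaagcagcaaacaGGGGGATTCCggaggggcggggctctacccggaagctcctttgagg
Ifnb1: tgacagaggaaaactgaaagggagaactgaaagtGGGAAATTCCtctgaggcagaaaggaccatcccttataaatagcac
Med21: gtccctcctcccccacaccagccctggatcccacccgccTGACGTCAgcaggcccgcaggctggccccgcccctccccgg
In the 250 bases before the start, on both strands, a kappaB match was present in 3 of 69 genes with a higher response that had a promoter in the table (4.35%), in 3 of 46 with a lower response (6.52%) and in 541 of 9882 genes tested (5.47%). Over all 32851 promoters of the table the share was 3.9%. A CRE half-site was present in 10 of the 69 (14.5%), 6 of the 46 (13%) and 998 of the 9882 (10.1%), and in 6.47% of all promoters. A match is a run of letters and not a measured binding site, and these shares were not tested.

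The largest difference in this class was in Med21 (gene ID 108098), a subunit of the Mediator complex that links transcription factors to RNA polymerase II. Med21 read 7.31 and 7.14 unstimulated and 7.61 and 8.10 with LPS in IL10-/- cells, and 7.43 and 7.53 unstimulated and 10.63 and 10.29 with LPS in p50-/-IL10-/- cells. The genotypes were 0.25 log2 apart without stimulus and 2.61 apart with LPS, a difference of 2.35 ± 0.23 (limma adjusted p 0.00164). Of 28 measured Mediator genes it was the 1 called gene (1.19% of all genes), and the list's median difference was -0.09 log2. Gem, a small GTPase, read 3.79 and 3.90 unstimulated and 4.72 and 5.44 with LPS in IL10-/- cells, and 3.51 and 3.78 unstimulated and 6.72 and 6.93 with LPS in p50-/-IL10-/- cells, where all but the last group mean are dim (difference 1.95 ± 0.33). Gja1, the gap junction protein connexin 43, differed by 1.74 ± 0.29, and the unstimulated p50-/-IL10-/- arrays (5.63 and 5.40, of which the mean is dim) lay below the IL10-/- arrays (7.13 and 7.71). With LPS the genotypes overlapped for Gja1 (8.99 and 9.46 against 9.24 and 8.87), so its larger rise started from a lower level.

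Med21 and Nfkbie kept their calls in all 8 fits with 1 array left out. Calls of the other genes of this class named above ended in some of the 8 fits, Gja1 in 4 (highest adjusted p 0.108, without unstimulated p50-/-IL10-/- array 2), Il10 in 4 (highest adjusted p 0.0878, without LPS-treated p50-/-IL10-/- array 1), Gem in 5 (highest adjusted p 0.0995, without unstimulated p50-/-IL10-/- array 1), Il12b in 5 (highest adjusted p 0.138, without LPS-treated p50-/-IL10-/- array 1), Ccl2 in 5 (highest adjusted p 0.163, without LPS-treated p50-/-IL10-/- array 1), Ifnb1 in 6 (highest adjusted p 0.117, without unstimulated p50-/-IL10-/- array 1), Arid5a in 6 (highest adjusted p 0.176, without unstimulated p50-/-IL10-/- array 1), Il1a in 7 (highest adjusted p 0.146, without unstimulated p50-/-IL10-/- array 2), Il15 in 7 (highest adjusted p 0.137, without unstimulated IL10-/- array 2). Il12b has a further probe set, which was called on its own (1.25 ± 0.14, adjusted p 0.00589 over all probe sets). Of the 5 further probe sets of Gja1, all were positive and 0 called, and the name of the one used marks probes shared with other transcripts.

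**Figure D2:**
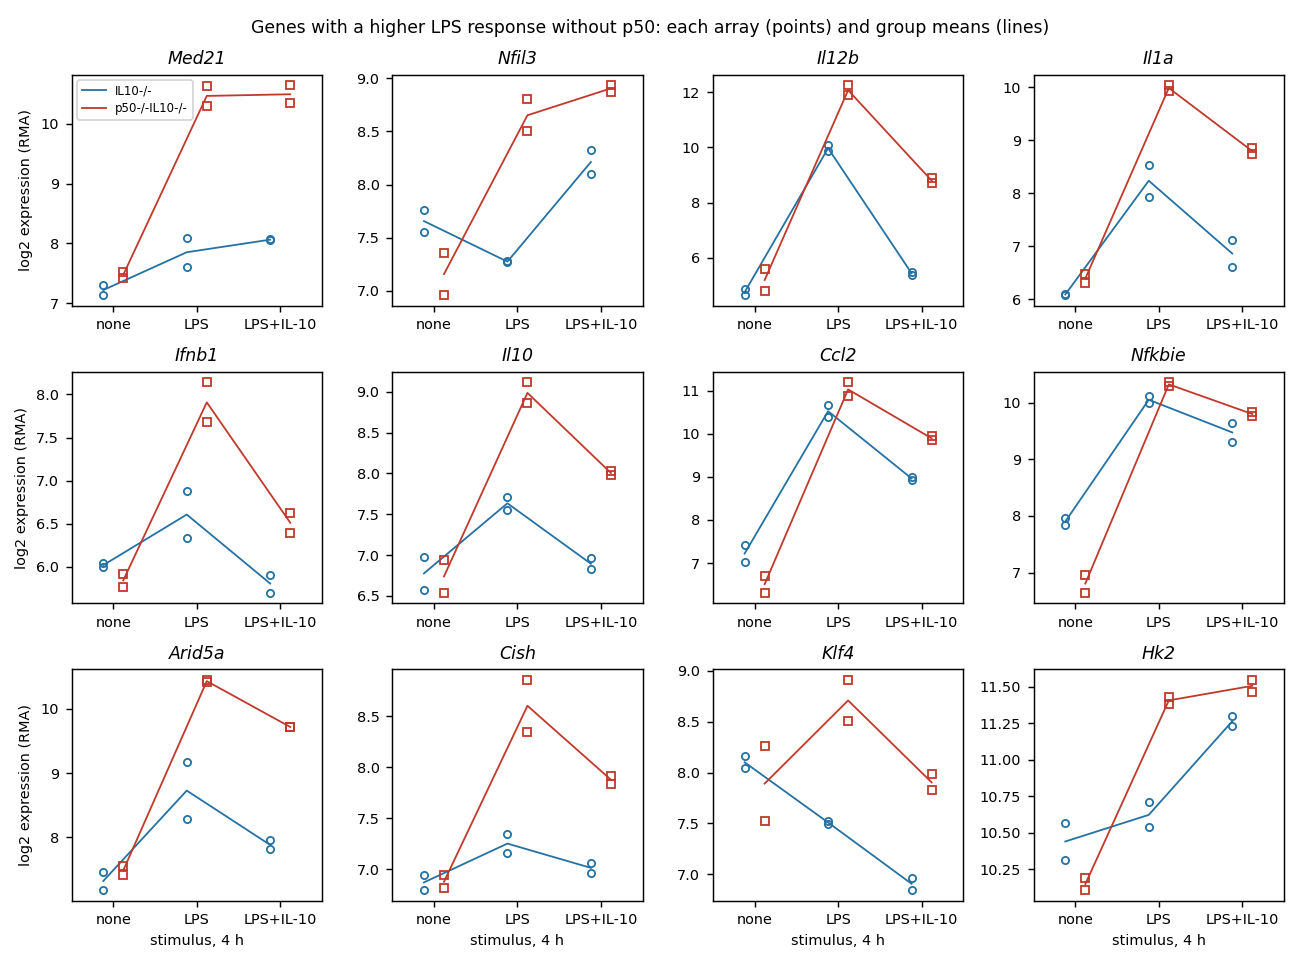
Log2 expression (RMA, y axis, a separate scale for each gene) of 12 genes with a higher LPS response without p50, by stimulus at 4 h (x axis), in IL10-/- (blue circles) and p50-/-IL10-/- cells (red squares). Points are arrays, 2 per group, and lines join the group means; for Med21 the p50-/-IL10-/- arrays read 10.63 and 10.29 with LPS against 7.61 and 8.10 in IL10-/- cells.

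A further 39 genes were called higher with LPS in p50-/-IL10-/- cells and not called in IL10-/- cells. Transcription factors and signalling inhibitors of the cytokine response were among them. Nfil3 (gene ID 18030), a bZIP repressor induced by IL-10 in macrophages, read 7.55 and 7.76 unstimulated and 7.28 and 7.27 with LPS in IL10-/- cells, and 7.35 and 6.96 unstimulated and 8.50 and 8.80 with LPS in p50-/-IL10-/- cells. The IL10-/- arrays changed by -0.38 log2 with LPS, which was not called, and the p50-/-IL10-/- arrays rose by 1.49, a difference of 1.87 ± 0.20 (limma adjusted p 0.00246). Cish (gene ID 12700), a SOCS family inhibitor of STAT5 signalling, read 6.95 and 6.80 unstimulated and 7.16 and 7.34 with LPS in IL10-/- cells, and 6.94 and 6.81 unstimulated and 8.35 and 8.85 with LPS in p50-/-IL10-/- cells. Both LPS-treated p50-/-IL10-/- arrays lay more than 1 log2 above all other arrays of the comparison (difference 1.34 ± 0.20, limma adjusted p 0.0129). With Arid5a these were the 3 called genes among 19 measured IL-10 receptor, STAT3 and SOCS genes, all higher (0.734% of all genes). Socs3, Stat3 and the other 14 members were not called.

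Klf4, a zinc finger factor of monocyte differentiation, read 8.04 and 8.16 unstimulated and 7.49 and 7.52 with LPS in IL10-/- cells, and 7.52 and 8.26 unstimulated and 8.51 and 8.91 with LPS in p50-/-IL10-/- cells. The genotypes moved apart with LPS and overlapped without it (difference 1.41 ± 0.28, limma adjusted p 0.0469). Hk2 (gene ID 15277), the inducible hexokinase that starts glycolysis, read 10.57 and 10.31 unstimulated and 10.54 and 10.71 with LPS in IL10-/- cells, and 10.11 and 10.19 unstimulated and 11.38 and 11.43 with LPS in p50-/-IL10-/- cells, a difference of 1.08 ± 0.14. Hmgn3, a nucleosome-binding protein, stood at 7.28 and 7.12 in IL10-/- and 8.72 and 8.47 in p50-/-IL10-/- cells with LPS, and between 6.74 and 7.08 on all 4 unstimulated arrays (difference 1.54 ± 0.18).

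The largest difference of all 12393 genes was in BC023105, which read 4.83 and 4.73 unstimulated and 5.55 and 4.86 with LPS in IL10-/- cells, and 5.09 and 4.90 unstimulated and 9.17 and 8.41 with LPS in p50-/-IL10-/- cells. It was dim in 3 of the 4 groups and clearly measured only in LPS-treated p50-/-IL10-/- cells, a difference of 3.37 ± 0.49 whose size is uncertain. Gbp2b, a guanylate-binding protein of the interferon response, was dim in IL10-/- cells (5.05 and 4.52 without LPS, 5.03 and 5.15 with it). In p50-/-IL10-/- cells it read 10.14 and 10.11 unstimulated and 12.54 and 12.17 with LPS, and the unstimulated genotypes already lay apart, by 5.34 log2 as read. Since the IL10-/- levels are dim, the sizes of this gap and of the difference of the response (1.93 ± 0.30) are uncertain. Gbp2b was the 1 call among 50 measured interferon-stimulated genes (1.19% of all genes). LPS raised 39 of the 50 in each genotype, and their median difference was -0.21 log2. Gbp2b lies on chromosome 3, which also carries Nfkb1, and 5 of 630 genes tested on that chromosome were called (0.794%, against 1.19% of all genes). The called gene Cenpe, described at the end, lies on it too. This share covers the whole chromosome and cannot show whether calls gather near Nfkb1, since genes close to it were not looked at apart. The promoters searched begin at chr3:135212313 for Cenpe and chr3:142594597 for Gbp2b, and linkage to Nfkb1 was not tested.

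Nfil3, Hk2 and Hmgn3 kept their calls in all 8 fits with 1 array left out, and the call ended for Cish in 2 (highest adjusted p 0.0755, without unstimulated p50-/-IL10-/- array 2), BC023105 in 3 (highest adjusted p 0.0639, without unstimulated p50-/-IL10-/- array 2), Gbp2b in 3 (highest adjusted p 0.0766, without unstimulated p50-/-IL10-/- array 2), Klf4 in 7 (highest adjusted p 0.164, without unstimulated IL10-/- array 2). The other probe set of Hmgn3 was also called (1.42 ± 0.22), and that of Klf4 was not (1.14 ± 0.23, adjusted p 0.0549 over all probe sets).

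Rises with LPS were smaller or not called without p50 for 12 genes. Marco (gene ID 17167), a scavenger receptor that binds bacteria and particles, had the largest lower response of all genes and read 7.65 and 6.45 unstimulated and 9.96 and 10.58 with LPS in IL10-/- cells, and 7.54 and 7.57 unstimulated and 7.50 and 7.50 with LPS in p50-/-IL10-/- cells. The IL10-/- arrays with LPS lay above all others, while all 4 p50-/-IL10-/- arrays lay between 7.50 and 7.57 log2. Its response was 3.22 log2 in IL10-/- and -0.06 in p50-/-IL10-/- cells, a difference of -3.28 ± 0.44 (SE, n = 2 arrays per group, limma adjusted p 0.00888). The unstimulated IL10-/- arrays differed from each other by more than 1 log2, and without array 2 or array 1 of that group the difference was -2.68 and -3.88. Clec4e (gene ID 56619), the receptor Mincle for mycobacterial glycolipids, read 10.57 and 10.70 unstimulated and 13.03 and 13.05 with LPS in IL10-/- cells, and 11.63 and 11.77 unstimulated and 13.24 and 13.17 with LPS in p50-/-IL10-/- cells. It ended 0.16 log2 higher and started 1.07 log2 higher without p50, so the smaller rise (-0.91 ± 0.12, limma adjusted p 0.00836) lay in the unstimulated cells. Marco and Clec4e were the 2 calls among 21 measured scavenger receptors and C-type lectins (1.19% of all genes).

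Cebpd (gene ID 12609), a C/EBP transcription factor of the acute inflammatory response, read 9.59 and 9.76 unstimulated and 11.53 and 11.55 with LPS in IL10-/- cells, and 8.85 and 8.67 unstimulated and 9.55 and 9.25 with LPS in p50-/-IL10-/- cells. LPS-treated p50-/-IL10-/- arrays did not exceed the unstimulated IL10-/- arrays, and the difference was -1.23 ± 0.17 log2 (limma adjusted p 0.0104). The other, less bright probe set of Cebpd gave -0.56 ± 0.15 and was not called (limma adjusted p 0.157 over all probe sets). Sqstm1 (gene ID 18412), the autophagy receptor p62, rose from 12.40 and 12.48 to 13.06 and 13.13 in IL10-/- cells and read 12.22 and 12.27 without LPS and 12.08 and 12.24 with it in p50-/-IL10-/- cells (-0.74 ± 0.13). It was the 1 call among 17 measured NF-kB feedback and TRAF genes (1.19% of all genes). Slc16a3, the lactate exporter MCT4, rose from 7.69 and 7.57 to 8.48 and 8.36 in IL10-/- cells and read 7.82 and 7.78 without LPS and 7.95 and 7.71 with it in p50-/-IL10-/- cells (-0.75 ± 0.15).

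Akna, an AT-hook protein, Mapkbp1, a scaffold that binds JNK, and Sh3bp5 rose in IL10-/- cells by 1.11, 0.94 and 0.83 log2 and were not called in p50-/-IL10-/- cells (-0.09, -0.22 and -0.31). Their differences were -1.20 ± 0.17, -1.17 ± 0.17 and -1.14 ± 0.20, and the other probe set of each was called in the same direction. Marco and Clec4e were called in all 8 fits with 1 array left out, and the call ended for Mapkbp1 in 1 (highest adjusted p 0.0637, without unstimulated p50-/-IL10-/- array 2), Cebpd in 1 (highest adjusted p 0.0517, without unstimulated p50-/-IL10-/- array 1), Akna in 2 (highest adjusted p 0.0568, without LPS-treated p50-/-IL10-/- array 1), Sh3bp5 in 5 (highest adjusted p 0.12, without LPS-treated p50-/-IL10-/- array 1), Sqstm1 in 6 (highest adjusted p 0.109, without LPS-treated p50-/-IL10-/- array 1), Slc16a3 in 8 (highest adjusted p 0.169, without unstimulated IL10-/- array 2).

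Opposite responses were called for 14 genes. Ier5 (gene ID 15939), an immediate early gene, read 9.34 and 9.11 unstimulated and 9.83 and 9.73 with LPS in IL10-/- cells, and 9.30 and 9.52 unstimulated and 8.35 and 8.21 with LPS in p50-/-IL10-/- cells. LPS raised it by 0.56 log2 in IL10-/- cells and changed it by -1.14 in p50-/-IL10-/- cells, from overlapping unstimulated levels (difference -1.70 ± 0.15, limma adjusted p 0.00151). Eno2 (gene ID 13807), an enolase of glycolysis, read 6.76 and 6.89 unstimulated and 7.29 and 7.81 with LPS in IL10-/- cells, and 6.87 and 7.27 unstimulated and 5.10 and 5.18 with LPS in p50-/-IL10-/- cells. The LPS-treated p50-/-IL10-/- arrays are dim, so the size of its difference of -2.65 ± 0.25 is uncertain. Pfkl (gene ID 18641), the liver type phosphofructokinase, read 9.44 and 9.29 unstimulated and 9.87 and 9.96 with LPS in IL10-/- cells, and 9.21 and 9.14 unstimulated and 8.75 and 8.85 with LPS in p50-/-IL10-/- cells, a difference of -0.92 ± 0.12 (limma adjusted p 0.00836). Of 26 measured glycolysis and hypoxia genes, Eno2, Pfkl and Slc16a3 were called lower (0.452% of all genes) and Hk2 higher (0.734%). Their median difference was -0.11 log2.

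Ctu1, an enzyme of tRNA thiolation, changed by 0.84 log2 in IL10-/- and -0.64 in p50-/-IL10-/- cells (-1.48 ± 0.22). Ankrd33b changed by 0.76 and -0.44, from an unstimulated level that was already 2.65 log2 lower without p50 and to a dim one (-1.20 ± 0.20). The 4 genes with the reverse pattern fell in IL10-/- and rose in p50-/-IL10-/- cells. Nfatc1 (gene ID 18018), a calcium-regulated transcription factor, read 8.45 and 8.52 unstimulated and 7.81 and 7.88 with LPS in IL10-/- cells, and 8.77 and 8.66 unstimulated and 9.22 and 9.18 with LPS in p50-/-IL10-/- cells. Its groups did not overlap, and the difference was 1.13 ± 0.10 (limma adjusted p 0.00151), with the other probe set called in the same direction. Phlpp1, a phosphatase of Akt, changed by -0.39 and 0.61, the membrane protein gene Tm7sf3 by -0.52 and 0.52, and Rdh10, a retinol dehydrogenase, by -0.40 and 0.28. Eno2, Ier5, Pfkl, Nfatc1 and Tm7sf3 kept their calls in all 8 fits with 1 array left out, and the call ended for Phlpp1 in 2 (highest adjusted p 0.0634, without LPS-treated p50-/-IL10-/- array 1), Ctu1 in 3 (highest adjusted p 0.0639, without unstimulated p50-/-IL10-/- array 2), Ankrd33b in 4 (highest adjusted p 0.0983, without LPS-treated p50-/-IL10-/- array 1), Rdh10 in 6 (highest adjusted p 0.142, without unstimulated IL10-/- array 2). For Ier5 the 2 further probe sets were negative and not called, and for Tm7sf3 they were positive and not called.

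Falls with LPS were deeper without p50 for 34 genes, among them the phosphatases Dusp1 and Dusp6 and the immediate early gene Fos. Dusp1 (gene ID 19252), which inactivates p38 and JNK, read 10.12 and 10.09 unstimulated and 10.11 and 9.83 with LPS in IL10-/- cells, and 9.92 and 10.16 unstimulated and 8.12 and 8.15 with LPS in p50-/-IL10-/- cells. Its levels with and without LPS overlapped in IL10-/- cells, and the p50-/-IL10-/- arrays fell by 1.90 log2 (difference -1.77 ± 0.17, SE, n = 2 arrays per group, limma adjusted p 0.00151). Dusp6 (gene ID 67603), which inactivates ERK, read 8.32 and 8.33 unstimulated and 7.73 and 7.39 with LPS in IL10-/- cells, and 7.92 and 7.83 unstimulated and 5.89 and 5.73 with LPS in p50-/-IL10-/- cells, a difference of -1.30 ± 0.18. Fos (gene ID 14281), a subunit of the transcription factor AP-1, read 11.20 and 10.89 unstimulated and 10.33 and 9.50 with LPS in IL10-/- cells, and 9.91 and 10.07 unstimulated and 6.91 and 7.08 with LPS in p50-/-IL10-/- cells. Unstimulated p50-/-IL10-/- cells were already lower by 1.05 log2, and with LPS the genotypes were 2.92 log2 apart (difference -1.87 ± 0.32, limma adjusted p 0.0239).

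Among 17 measured MAP kinase phosphatases and mRNA decay factors, Dusp1 and Dusp6 were the 2 calls, both lower (0.452% of all genes). The list median was -0.09 log2. Fos and Ier5 were the 2 calls among 28 measured ERK pathway and immediate early genes, both lower (0.452% of all genes), with a median of 0.00 log2. Promoter stretches of Dusp1 and Fos, shown because both carry the CRE half-site near the start, come from the same RefSeq table. Capitals mark the half-site TGACGT and, in Dusp1, a full site where 2 half-sites on opposite strands overlap. The Dusp1 stretch is chr17:26508593-26508672 on the minus strand and the Fos stretch chr12:85473790-85473869 on the plus strand.
Dusp1: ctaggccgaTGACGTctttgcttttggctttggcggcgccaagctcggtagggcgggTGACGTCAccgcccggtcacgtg
Fos: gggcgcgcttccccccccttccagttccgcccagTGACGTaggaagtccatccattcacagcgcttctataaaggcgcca
Among the 34 genes with deeper falls, 28 had a promoter in the table and 4 of these held a half-site (14.3%), against 10.1% of all genes tested.

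Cebpa (gene ID 12606), a C/EBP factor that maintains myeloid identity, read 12.17 and 12.00 unstimulated and 9.57 and 9.81 with LPS in IL10-/- cells, and 12.07 and 12.24 unstimulated and 8.22 and 8.65 with LPS in p50-/-IL10-/- cells. Cxcr4 (gene ID 12767), the receptor for CXCL12 that retains cells in the marrow, read 12.40 and 12.33 unstimulated and 10.51 and 10.76 with LPS in IL10-/- cells, and 12.35 and 12.38 unstimulated and 8.90 and 9.27 with LPS in p50-/-IL10-/- cells. Both genes overlapped in the unstimulated genotypes, fell in both and ended lower without p50, with differences of -1.33 ± 0.25 and -1.56 ± 0.26 log2 (limma adjusted p 0.0355 and 0.0219). In the list of 31 measured myeloid transcription factors and identity genes, Cebpa, Cebpd and Cxcr4 were called lower (0.452% of all genes), and Klf4 and Nr4a1 higher (0.734%).

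Ptger2 (gene ID 19217), the prostaglandin E2 receptor EP2, read 8.73 and 8.75 unstimulated and 8.24 and 8.36 with LPS in IL10-/- cells, and 8.40 and 8.62 unstimulated and 5.97 and 6.73 with LPS in p50-/-IL10-/- cells, a difference of -1.73 ± 0.30 log2. Kcnn4, a calcium-activated potassium channel, stood between 11.31 and 11.76 on 6 of the 8 arrays and at 9.99 and 10.25 on the LPS-treated p50-/-IL10-/- arrays (-1.33 ± 0.22). Sephs2, which makes the selenium donor for selenoproteins, showed the same picture, with 9.86 and 9.94 on those arrays and 11.15 or more on the others (-1.37 ± 0.14, limma adjusted p 0.00164). Bcl2l1, which codes for the survival protein Bcl-xL, read 8.44 and 8.43 there and 9.21 or more elsewhere (-0.91 ± 0.14), and its 3 further probe sets were negative and not called. Tor4a, a torsin family ATPase, changed by -0.61 in IL10-/- and -2.40 in p50-/-IL10-/- cells (-1.79 ± 0.19), and Incenp, a subunit of the chromosomal passenger complex, by -0.55 and -2.07 (-1.53 ± 0.20). The name of the Incenp probe set used marks probes shared with other transcripts. Of its 2 further probe sets, 1 was called lower (-1.06 ± 0.18) and 1 was not called (-0.49 ± 0.16). Dusp1, Sephs2 and Tor4a kept their calls in all 8 fits with 1 array left out, and the call ended for Incenp in 1 (highest adjusted p 0.0516, without unstimulated p50-/-IL10-/- array 1), Dusp6 in 1 (highest adjusted p 0.0517, without unstimulated p50-/-IL10-/- array 1), Fos in 4 (highest adjusted p 0.116, without LPS-treated p50-/-IL10-/- array 1), Kcnn4 in 4 (highest adjusted p 0.093, without LPS-treated p50-/-IL10-/- array 1), Bcl2l1 in 4 (highest adjusted p 0.081, without unstimulated p50-/-IL10-/- array 2), Ptger2 in 5 (highest adjusted p 0.112, without unstimulated p50-/-IL10-/- array 2), Cxcr4 in 6 (highest adjusted p 0.101, without unstimulated p50-/-IL10-/- array 2), Cebpa in 6 (highest adjusted p 0.155, without unstimulated p50-/-IL10-/- array 2).

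**Figure D3:**
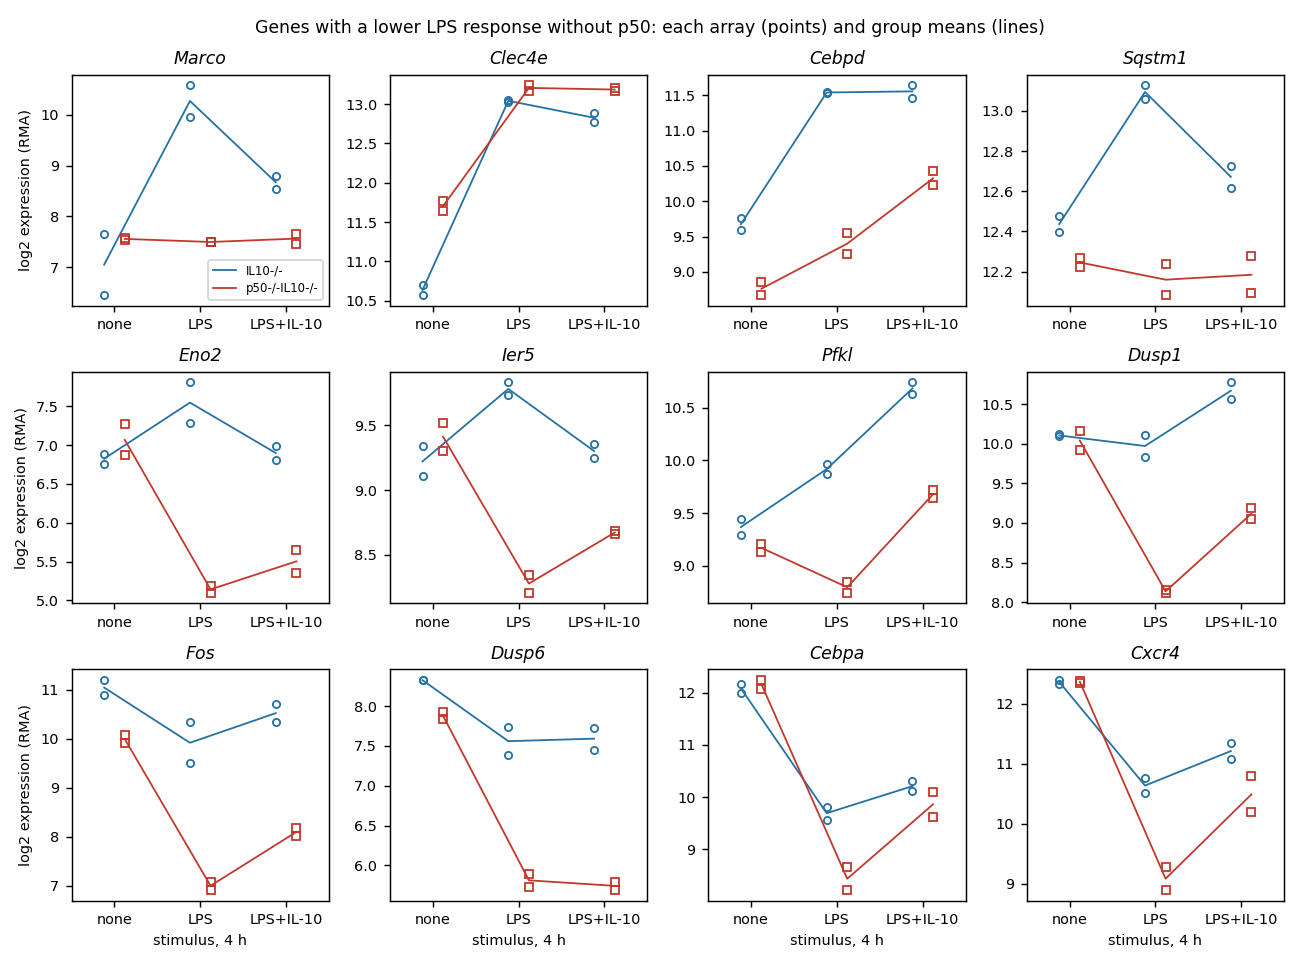
Log2 expression (RMA, y axis, a separate scale for each gene) of 12 genes with a lower LPS response without p50, by stimulus at 4 h (x axis), in IL10-/- (blue circles) and p50-/-IL10-/- cells (red squares). Points are arrays, 2 per group, and lines join the group means; for Dusp1 the LPS-treated p50-/-IL10-/- arrays read 8.12 and 8.15 and the LPS-treated IL10-/- arrays 10.11 and 9.83.

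In 9 genes LPS lowered expression in IL10-/- cells and lowered it less, or without a call, in p50-/-IL10-/- cells. Cytip (gene ID 227929), a regulator of leukocyte adhesion, read 9.95 and 10.50 unstimulated and 7.0 and 7.53 with LPS in IL10-/- cells, and 8.80 and 8.57 unstimulated and 7.62 and 7.33 with LPS in p50-/-IL10-/- cells. Its unstimulated level was lower without p50 and the levels with LPS overlapped, so the genotypes converged (difference 1.75 ± 0.28, limma adjusted p 0.0166). Nr4a1, the orphan nuclear receptor Nur77, likewise started at 9.61 and 9.31 in IL10-/- and 8.55 and 8.37 in p50-/-IL10-/- cells and ended at 8.07 and 8.20 in the former and 7.88 and 7.96 in the latter (0.79 ± 0.16). Gpr34, a receptor for lysophosphatidylserine, started at 7.08 and 6.59 in IL10-/- and 5.86 and 5.57 in p50-/-IL10-/- cells. It fell to dim levels in both genotypes, so its difference (1.26 ± 0.22) lay in the unstimulated cells and its size is uncertain. Pag1, an adaptor that binds the kinase Csk, ended higher without p50 (0.57 ± 0.12), and its other probe set was not called (0.20 ± 0.11). Of the 4 genes not called in p50-/-IL10-/- cells, Crem, a factor of the cAMP response, read 6.45 and 6.39 with LPS in IL10-/- and 7.04 and 6.71 in p50-/-IL10-/- cells (0.90 ± 0.17). Bambi, a decoy receptor for TGF beta family signals, read 7.21 and 7.03 in the former and 7.98 and 7.71 in the latter (0.87 ± 0.15), and Ctla2b, a cysteine protease inhibitor, 10.11 and 9.59 against 10.78 and 10.45 (1.20 ± 0.24). Adi1, an enzyme of methionine salvage, differed by 0.57 ± 0.10, and 1 of its 2 further probe sets had the opposite sign (-0.01 ± 0.24). The name of the one used for Adi1 marks probes shared with other transcripts. For Crem the 2 further probe sets were positive and not called (1.36 ± 0.32 and 0.05 ± 0.19). None of these 8 calls was kept in all 8 fits with 1 array left out, and the call ended for Cytip in 4 (highest adjusted p 0.0882, without unstimulated p50-/-IL10-/- array 2), Gpr34 in 5 (highest adjusted p 0.112, without unstimulated p50-/-IL10-/- array 2), Crem in 5 (highest adjusted p 0.145, without unstimulated p50-/-IL10-/- array 2), Bambi in 5 (highest adjusted p 0.111, without unstimulated IL10-/- array 2), Ctla2b in 6 (highest adjusted p 0.192, without unstimulated p50-/-IL10-/- array 2), Nr4a1 in 7 (highest adjusted p 0.203, without unstimulated p50-/-IL10-/- array 2), Pag1 in 7 (highest adjusted p 0.188, without unstimulated p50-/-IL10-/- array 2), Adi1 in 7 (highest adjusted p 0.129, without unstimulated IL10-/- array 2).

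**Figure D4:**
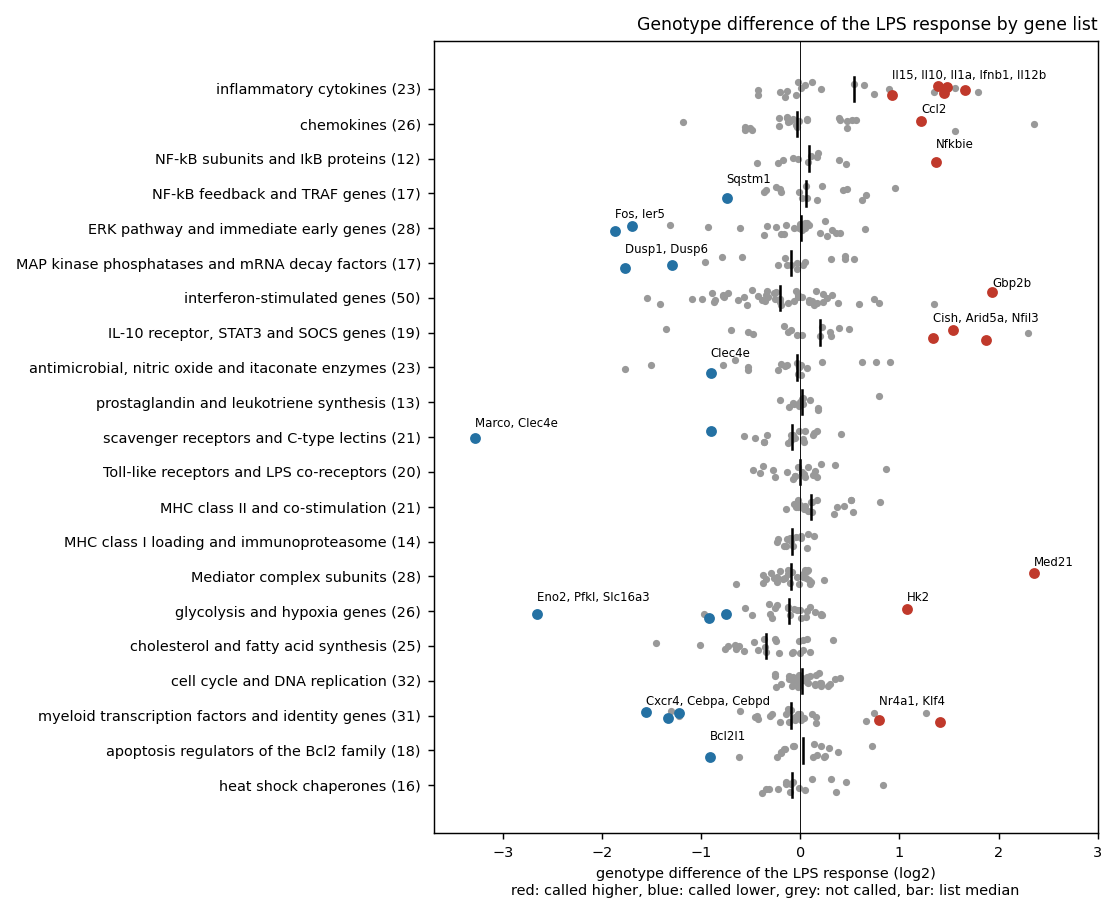
Genotype difference of the LPS response (log2, x axis) of the measured members of 21 gene lists (y axis, number of members in parentheses). Points are genes, red where called higher, blue where called lower and grey where not called, called genes are named from lowest to highest, and black bars are list medians. The cytokine list, which includes the knocked-out Il10, has the highest median, 0.54 log2, and the cholesterol and fatty acid list the lowest, -0.35 log2.

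Other lists, of 13 to 32 measured genes, held no call for the difference. With 1.19% of all genes called, lists of this size would hold few calls or none. Among 25 measured cholesterol and fatty acid synthesis genes the median difference was -0.35 log2, and LPS raised 9 and lowered 3 in IL10-/- cells but raised 3 and lowered 4 in p50-/-IL10-/- cells. The member with the largest difference was the desaturase gene Scd2 (-1.45 ± 0.42, limma adjusted p 0.184), whose LPS-treated IL10-/- arrays lay apart from each other (6.51 and 7.39). Among 13 prostaglandin and leukotriene genes the largest was Ptges, the inducible prostaglandin E synthase (0.79 ± 0.25). Among 20 Toll-like receptors and co-receptors it was Tlr3, the receptor for double-stranded RNA (0.87 ± 0.33), and among 21 MHC class II and co-stimulation genes the adhesion molecule Vcam1 (0.80 ± 0.34). Adjusted p-values of these 3 genes in limma were 0.247, 0.37 and 0.46, and 1 of the 2 further probe sets of Vcam1 was called higher (1.54 ± 0.25, adjusted p 0.0243 over all probe sets). For 14 MHC class I loading genes the largest was Tapbp, a chaperone of peptide loading (-0.24 ± 0.28), for 32 cell cycle genes the cyclin Ccnd2 (0.40 ± 0.22), and for 16 heat shock chaperones Hspa1a (0.84 ± 0.22). Medians of the last 6 lists named lay between -0.09 and 0.11 log2. Bcl2l1 was the 1 call among 18 measured Bcl2 family genes, and Clec4e the 1 call among 23 antimicrobial, nitric oxide and itaconate genes (1.19% of all genes).

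The shared response was described by genes called in the same direction in both genotypes whose 95% interval of the difference lay within -1 and 1 log2. Tnf (gene ID 21926), an early cytokine of the LPS response, read 8.6 and 8.42 unstimulated and 12.47 and 12.37 with LPS in IL10-/- cells, and 8.86 and 9.21 unstimulated and 12.50 and 12.54 with LPS in p50-/-IL10-/- cells. All LPS-treated arrays lay within 12.37 to 12.54 log2, and the difference was -0.43 ± 0.16 with an interval of -0.78 to -0.08. Tnfsf9, the ligand of the co-stimulatory receptor 4-1BB, rose by 4.45 and 4.57 log2 (interval -0.42 to 0.65). Cd40, the co-stimulatory receptor, rose by 4.65 and 5.02 (interval -0.12 to 0.86). Its other probe set gave a larger difference, 0.63 ± 0.23, not called (limma adjusted p 0.384 over all probe sets). The bound of 1 log2 is therefore shown only for the probe set used. Among shared falls, Rab11fip5, a vesicle transport protein, changed by -2.61 and -2.94 (interval -0.90 to 0.25), the ceramide kinase Cerk by -2.34 and -2.30 (interval -0.58 to 0.66) and the MAP kinase target Mknk2 by -2.32 and -2.63 (interval -0.80 to 0.19). These intervals bound the difference and do not show that the responses were equal. Signs of the small differences of Tnfsf9 and Cerk turned with 1 array left out, to -0.095 and -0.25 without LPS-treated IL10-/- array 1.

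Most of the called differences appeared with LPS rather than before it. Of the 91 genes with a higher response, 81 were called higher and 0 lower without p50 among LPS-treated cells, whereas 3 were called higher and 10 lower among unstimulated cells. Of the 56 with a lower response, 0 were called higher and 54 lower with LPS, and 4 higher and 4 lower unstimulated. Called genotype differences over all genes made up 12.4% with LPS and 2.57% without stimulus. These comparisons share arrays with the difference of the response, so their counts describe how it came about. LPS-treated arrays of the genotypes did not overlap for 88 of the 91 and for all 56 genes (48.5% of all genes), and unstimulated arrays for 62 and 38 (47.8% of all genes).

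The arrays of cells given LPS with IL-10 do not enter the size of this difference. They do enter the spread behind its calls, which was estimated over all groups and also serves the calls on these arrays. The choice of genes is therefore not independent of them, and a fit without them kept 76 of the 147 calls. On the arrays with IL-10, 87 of the 91 genes with a higher response read higher without p50 (57% of all genes). The median genotype difference of the 91 was 0.75 log2, and 67 were called higher (7.58% of all genes) and 1 lower. Of the 56 genes with a lower response, 55 read lower without p50 (43% of all genes), with a median of -0.84, and 50 were called lower (10.4% of all genes) and 1 higher. Over all genes the median was 0.04 log2. Genotype differences on these arrays include any difference present before stimulation, and whether they share cultures with the LPS arrays is unknown here. Med21 read 8.07 and 8.06 in IL10-/- and 10.34 and 10.64 in p50-/-IL10-/- cells given both. Il12b read 5.51 and 5.39 against 8.72 and 8.88, and Il15 8.25 and 8.46 against 11.19 and 11.24, with genotype differences of 3.35 and 2.86 log2 beside 2.10 and 0.94 with LPS alone, a change that was not tested. The Il12b level of IL10-/- cells given both is dim, so the size of its 3.35 is uncertain. Marco read 8.80 and 8.54 against 7.47 and 7.66, and Dusp1 10.77 and 10.56 against 9.19 and 9.05. Clec4e was an exception among genes with a lower response, since it read higher without p50 there (12.77 and 12.88 against 13.21 and 13.16), as in unstimulated cells.

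**Figure D5:**
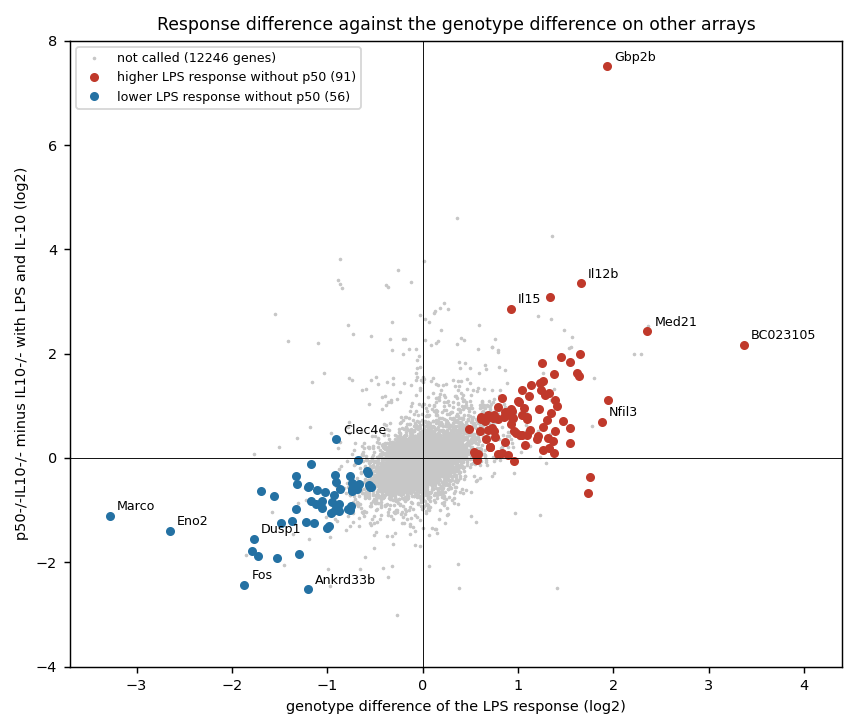
Genotype difference of the LPS response (log2, x axis) against the level in p50-/-IL10-/- minus IL10-/- cells given LPS and IL-10 (log2, y axis), whose arrays the x axis does not use. The calls, unlike the x values, rest on a spread estimated over all groups, those of the y axis included. Each point is a gene, red for the 91 called higher and blue for the 56 called lower; 87 of the red points lie above zero and 55 of the blue points below it.

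Markers of other cell types held no call for the difference in any of 7 lists. Since 1.19% of all genes were called, the absence of calls in lists this short says little about cell types. Neutrophil and granule markers (12 measured) averaged 8.44 to 8.46 log2 on unstimulated and LPS-treated IL10-/- arrays and 7.88 to 8.01 on those of p50-/-IL10-/- cells, so they were lower without p50 at both stimuli. The largest difference of the response in that list was in the granule gene Ngp (0.31 ± 0.12, limma adjusted p 0.388). Stromal markers (16 measured) averaged 6.31 to 6.57 on IL10-/- and 5.95 to 6.10 on p50-/-IL10-/- arrays, with the largest difference in Pdgfrb (0.59 ± 0.17). Dendritic cell markers (9 measured, 5 dim in each group) averaged 5.86 to 5.99 and 6.19 to 6.30, with the largest difference in Zbtb46 (-0.24 ± 0.10). B cell, T and NK cell, erythroid, and mast cell and basophil markers overlapped between the genotypes or lay within 0.2 log2, with the largest differences in Blnk (-0.38), Cd3g (0.27), Tfrc (-0.52) and Tpsb2 (0.13). The part of neutrophil, dendritic and stromal cells in the differences above was not tested.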

How the data were processed

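Log2 values of 22690 probe sets on 12 arrays were deposited by the authors, with RMA and limma named in the submitters' processing notes. Versions, options and the genome build of the probe annotation are not given in the sources used here. Probe sets with 1 gene symbol (20380) were used, and a gene read by several was represented by the brightest on average, which gave 12393 genes. Control probe sets (64), probe sets of several genes (691) and of no gene (1555) were left out.

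Group means of all 6 groups were fitted with limma 3.58.1 in R 4.3.3 (6 residual and 4.47 prior degrees of freedom), and p-values were adjusted with Benjamini-Hochberg over all genes, two-sided. Folds are 2 to the power of log2 differences, and precision is limited by 2 arrays a group.

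Gene lists (29, of which 8 hold cell type markers) and the rule for named genes were chosen with earlier results of these data known. Named were the 4 largest differences of each direction class (all where it held 4 or fewer), called list members, the largest member of lists without a call, the targeted gene Il10, and 6 genes of the shared response. Promoter sequences came from RefSeq (GRCm38.p6), and 115 of the 147 called genes matched. Alternatives covered scaling, the choice of probe set, a filter on dim genes, the arrays fitted, the prior, a block for replicate numbers and each array left out.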

Additional observations from a re-analysis of the deposited data

Results flagged for a closer look

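The LPS responses of the genotypes differed by a direct test for all genes below, which are the called genes named in the report, given with their log2 difference (response without p50 minus response in IL10-/- cells). Of the genes that rose more without p50, those called in all 8 fits with 1 array left out were Nfil3 (1.87), Hmgn3 (1.54), Med21 (2.35), Nfkbie (1.37), Hk2 (1.08). The call ended in at least 1 such fit for BC023105 (3.37), Gbp2b (1.93), Gem (1.95), Gja1 (1.74), Il12b (1.66), Il1a (1.45), Il15 (0.93), Ifnb1 (1.48), Il10 (1.39), Ccl2 (1.22), Cish (1.34), Arid5a (1.54), Klf4 (1.41). Of the genes that rose less, or without a call, without p50, those called in all 8 fits with 1 array left out were Marco (-3.28), Clec4e (-0.91). The call ended in at least 1 such fit for Akna (-1.20), Mapkbp1 (-1.17), Sh3bp5 (-1.14), Cebpd (-1.23), Sqstm1 (-0.74), Slc16a3 (-0.75). Of the genes that responded in opposite directions, those called in all 8 fits with 1 array left out were Nfatc1 (1.13), Tm7sf3 (1.04), Eno2 (-2.65), Ier5 (-1.70), Pfkl (-0.92). The call ended in at least 1 such fit for Phlpp1 (1.00), Rdh10 (0.68), Ctu1 (-1.48), Ankrd33b (-1.20). Of the genes that fell more without p50, those called in all 8 fits with 1 array left out were Tor4a (-1.79), Dusp1 (-1.77), Sephs2 (-1.37). The call ended in at least 1 such fit for Fos (-1.87), Cxcr4 (-1.56), Incenp (-1.53), Ptger2 (-1.73), Kcnn4 (-1.33), Dusp6 (-1.30), Cebpa (-1.33), Bcl2l1 (-0.91). Of the genes that fell less, or without a call, without p50, the call ended in at least 1 fit with 1 array left out for Cytip (1.75), Gpr34 (1.26), Nr4a1 (0.79), Pag1 (0.57), Ctla2b (1.20), Crem (0.90), Bambi (0.87), Adi1 (0.57). Of these 54 calls, 21 ended when only the 8 arrays compared were fitted, those of Cytip, Gpr34, Nr4a1, Pag1, Fos, Ctla2b, Crem, Bambi, Adi1, Rdh10, Ptger2, Ankrd33b, Gja1, Il12b, Il15, Ifnb1, Il10, Ccl2, Arid5a, Slc16a3 and Klf4. With the probe set of largest variance 8 ended, those of Nr4a1, Pag1, Ctla2b, Crem, Ccl2, Arid5a, Slc16a3 and Klf4, and the sign of Adi1 turned. Of these, Nr4a1, Ctla2b, Ccl2, Arid5a and Slc16a3 have only 1 probe set, so their values were unchanged. Their calls ended through the prior and the adjustment of p-values, which depend on the other genes.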

How the results depend on the processing

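All 147 calls kept their sign with each array left out, and other results moved as follows. Leaving out each array in turn gave 32 to 255 called genes, 16 to 120 higher and 16 to 135 lower, of which 14 to 103 rose more, 5 to 22 rose less or without a call, 5 to 19 responded in opposite directions, 5 to 98 fell more and 0 to 13 fell less or without a call. The same fits called 1950 to 3551 genes for the LPS response in IL10-/- cells, 2790 to 4302 in p50-/-IL10-/- cells, and 101 to 381 (unstimulated), 671 to 1896 (LPS) and 1936 to 2642 (LPS with IL-10) for the genotype difference. The fit of only the 8 arrays compared, which has fewer arrays to estimate the spread, called 78 genes, 46 higher and 32 lower, with 43 larger rises, 17 deeper falls and 0 smaller or absent falls. Taking the probe set with the largest variance called 118 genes, kept 97 of the 147 calls and left 5 smaller or absent falls. Centring each array on its median called 142 genes (142 of the 147 kept), repeated quantile normalisation 128 (124), the mean of all probe sets 146 (121), leaving out genes dim in every group 147 (146) and a prior with trend 148 (139).

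Replicate numbers are shared by all groups, but with 2 numbers they are not shown to pair the samples. Deviations of same-numbered arrays correlated positively in all pairs of the 4 groups compared, from 0.169 to 0.398 (0.398 between unstimulated and LPS-treated IL10-/- cells, 0.28 in p50-/-IL10-/- cells). With cells given LPS and IL-10 of the same genotype they correlated at 0.595 and 0.586 in IL10-/- and at -0.344 and -0.492 in p50-/-IL10-/- cells. With the replicate number as a block within genotype 199 genes were called (136 of the 147 kept), with 17 smaller or absent falls and 576 unstimulated genotype differences, and with 1 block across all groups 154 genes (134 kept). The block within genotype on only the 8 arrays, chosen after seeing the data, called 201 genes (116 kept; 78 without the block), 25 of them in opposite directions. No named call ended under either block on 12 arrays.

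Signs turned for genes with small differences or disagreeing probe sets, and the cause was not tested. With the probe set of largest variance Adi1 read -0.015, Tapbp 0.078 and Zbtb46 0.28. Without unstimulated IL10-/- array 2, Tapbp read 0.060, Tnfsf9 -0.018 and Cerk -0.10. Without LPS-treated IL10-/- array 1, Tnfsf9 read -0.095 and Cerk -0.25, without LPS-treated p50-/-IL10-/- array 2 they read -0.00234 and -0.13, and without unstimulated p50-/-IL10-/- array 1 Tpsb2 read -0.024. Over all 8 such fits Tapbp ranged from -0.54 to 0.060, Tnfsf9 from -0.095 to 0.33 and Cerk from -0.25 to 0.33.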

Other observations

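Genes of cell division and its regulation stood outside the cell cycle list and were called, and they were picked here after their values were seen. Higher responses without p50 were called for the repressors E2f8 (1.62 ± 0.16) and Rbl1 (1.65 ± 0.31), the cyclins Ccnj (1.32 ± 0.27) and Ccng2 (1.26 ± 0.20), the kinetochore motor Cenpe (1.38 ± 0.23), the spindle checkpoint protein Mad2l1 (1.09 ± 0.19) and the nuclear envelope protein Tmpo (1.32 ± 0.26), in log2 with SE. A lower response was called for the replication licensing factor Cdt1 (-1.32 ± 0.25), as for Incenp. The name of the probe set of Tmpo and of Cdt1 marks probes shared with other transcripts, and Cenpe lies on chromosome 3, which also carries Nfkb1. Of the 32 measured genes of the cell cycle list 0 were called in limma, with a median of 0.02 log2. With 1.19% of all genes called, a list of this size would hold few calls or none. The genes above are given as single genes, and no theme is named from them. E2f8 was called in all 8 fits with 1 array left out, while the calls of Ccng2 and Mad2l1 were kept in 3 of the 8, of Rbl1, Cenpe and Cdt1 in 2, and of Ccnj and Tmpo in 1.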
